A study of Drosophila melanogaster with 18 samples.

Results

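The comet-type genes of the *Drosophila melanogaster* testis examined here are a small set named after comets: *schuy* (schumacher-levy), *hale* (hale-bopp), *boly* (borrelly), *cola* (comas sola), *swif* (swift-tuttle), *whip* (whipple), *sunz* (sungrazer) and *soti* (scotti). The 8 genes were chosen by name, as genes of this class that are transcribed after meiosis, without the related cup genes. Whether the list holds every gene of the class was not checked. They are 8 of the 17575 genes in the count files. Of the 8, 6 had enough counts to be tested, among 14059 genes tested in all, and *cola* and *swif* had a count of 0 in every lane. RNA was purified from whole testes of adult males aged 1 to 3 days and reared at 25 °C, freed of ribosomal RNA and sequenced from both ends. The control testes were mod07570/+, with one wild-type copy of *modulo*, and the *modulo* mutant testes were modL8/mod07570, so the mod07570 allele was shared by both genotypes. There were 3 biological replicates of each genotype, each sequenced on 3 lanes. How many males were pooled in a replicate is not given in the sources used here.

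Most genes that a Drosophila spermatid needs are transcribed earlier, in the primary spermatocyte, and their RNAs are stored while transcription is low through the meiotic divisions and most of spermatid elongation. The comet and cup genes are exceptions to this rule. They are transcribed after meiosis, and their RNAs gather at the far ends of the elongating spermatid tails in patterns that look like comets or cups. The best known member is *soti*, whose protein inhibits a Cullin-3 ubiquitin ligase and so restrains the activation of caspases when the spermatids are separated from each other. *modulo* encodes a nucleolar RNA-binding protein. The comparison asks whether these late transcripts differed in abundance between control and *modulo* mutant testes.

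The annotation places the 8 genes at 4 sites on the dm6 assembly. *schuy* (FBgn0036925, chromosome 3L from 19986093 to 19988072, plus strand, 2 exons) and *hale* (FBgn0036924, 3L from 19984426 to 19985868, minus strand, 2 exons) are neighbours transcribed away from each other, with 224 bases between them. *sunz* (3R from 6630151 to 6631184, plus strand, 3 exons) and *soti* (3R from 14380663 to 14381699, minus strand, 1 exon) stand apart from the rest. The other 4 form a block on the minus strand of chromosome 2R. In the direction of transcription it runs from *boly* (8365550 to 8366688, 1 exon) through *cola* and *swif* (both 8363272 to 8365345) to *whip* (8362359 to 8363218, 1 exon). The gaps are 204 bases before *cola* and *swif* and 53 bases after them. All 4 genes of the block carry the same older name in the RefSeq gene table. The annotated proteins are short, from 147 codons for *soti* to 601 codons for *schuy*.

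*cola* and *swif* could not be measured, although they lie between *boly* and *whip*, which are among the abundant members. The annotation gives both the same 2074 exon bases, and neither gene has an exon base of its own. Their coding regions are separate within this shared transcript, from 8364513 to 8365289 for *cola* and from 8363494 to 8364345 for *swif*. The 2 genes next downstream of *whip*, *hubl* and *spaw*, also share all their exons with each other and were also at 0. In the whole annotation, 413 genes have no exon base of their own on their strand, and all 413 were at 0 in all 18 lanes. Among the 17099 genes that do have such bases, 2.24% were at 0. The 0 of *cola* and *swif* therefore cannot be told apart from the way shared exons were counted, and is not read as absence of the RNA. The gene *pdm3* spans the whole block on the opposite strand, but shares no exon base with it, and the counting used strand.

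**Figure D1:**
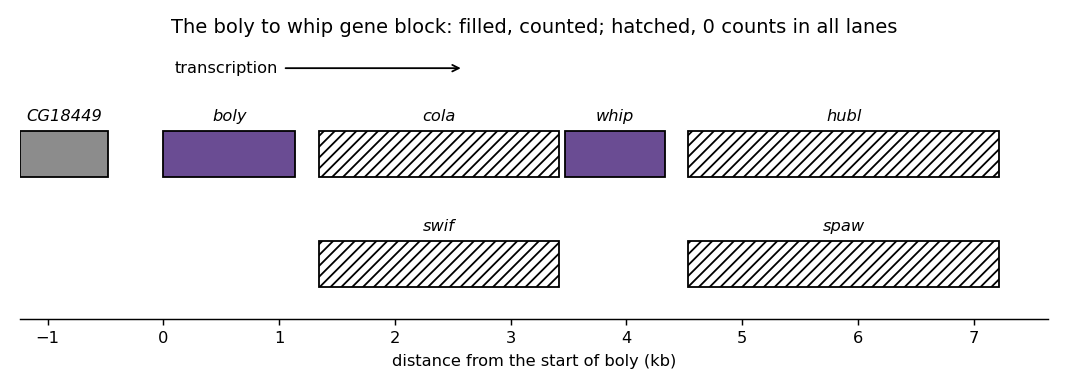
Map of the 2R block of comet-type genes, in the direction of transcription, with distance from the start of *boly* in kilobases on the x axis. Filled bars are annotated spans of counted genes (purple for members, grey for the upstream neighbour *CG18449*), and hatched bars are genes with a count of 0, each of which lies on the same bases as another gene.

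The 6 measured members were abundant RNAs in whole testes. Levels are compared between genes as FPKM, computed here from the normalized counts and the exon length of the gene. On this scale *soti* was at 421 ± 27.0 in control (SD, n = 3), *boly* at 348 ± 13.8 and *schuy* at 269 ± 14.0. *whip* was at 227 ± 7.15, *hale* at 116 ± 3.16 and *sunz* at 111 ± 5.59. The order thus has a high group of 4 genes and a low pair. *soti* exceeded the level of 98.4% of the 14028 tested genes with a length, and *sunz*, the lowest, exceeded 90.9% of them. In control, *hale* and *sunz* were the one pair of neighbours in this order whose replicates overlapped. In the mutant the order of the means was the same, with *soti* at 462 ± 50.1 and *sunz* at 92.8 ± 10.5. There *schuy* (245 ± 27.5) and *whip* (231 ± 12.9) overlapped as well as *hale* and *sunz*. *schuy* shares 46 exon bases at its 3′ end with *Csas* on the opposite strand. *Csas* averaged 5.43 normalized counts in control testes, very little beside *schuy*, and was too low to be tested.

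**Figure D2:**
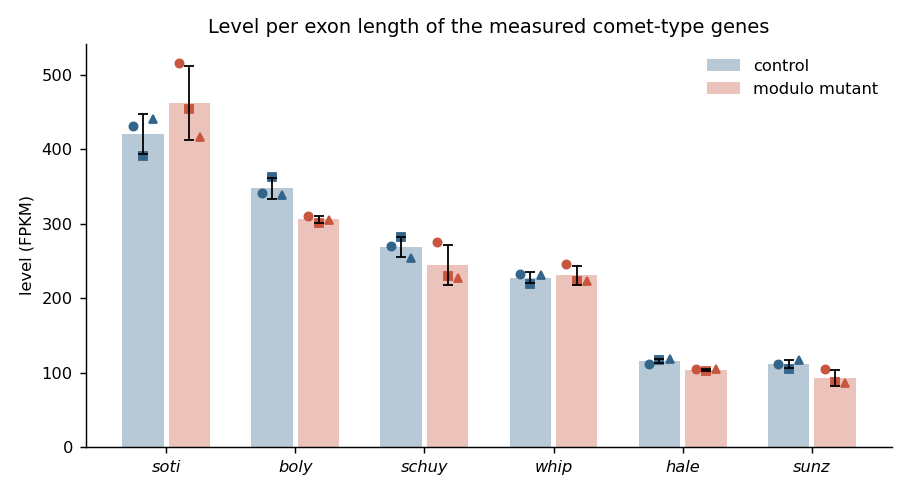
Level of each comet-type gene in FPKM (normalized counts scaled to exon length), with a point for each replicate, a coloured bar for the mean and a black bar for the SD of 3 control and 3 mutant replicates. The order of the means was the same in both genotypes, from *soti* at 421 in control down to *sunz* at 111.

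Counts were summed over lanes and scaled by edgeR's TMM method before the genotypes were compared. Total counts ran from 87119182 to 94915971 in control and from 90898263 to 107435753 in the mutant. *mod* itself was at 2063, 1963 and 2109 normalized counts in control and at 196, 182 and 121 in the mutant, so each library matched its label. Late spermatids are one cell type among many in whole testes, and with bulk RNA fewer cells of a type and less RNA per cell cannot be told apart. The germline genes *aly*, *can*, *dj*, *Mst87F* and *bol* were counted in every sample, as befits testis RNA. Markers of other stages and cell types were therefore counted in the same samples. The summed counts of 16 genes that control transcription in spermatocytes ran from 74686 to 83995 in control and from 85546 to 102429 in the mutant, without overlap. Of these 16 genes, 5 were higher and 1 was lower in the mutant, or 7 and 1 with the replicate number as a block. The share called was 37.5%, near the 32.3% of all tested genes. With the block, 45.6% of all tested genes were called. The same shares over all tested genes stand beside the counts of the lists that follow. The sum of 9 hub and cyst cell genes ran from 20662 to 21091 in control and from 17321 to 17661 in the mutant, again without overlap. Of the 9, 2 were higher, *tj* (0.46) and *Wnt4* (0.43). Another 3 were lower, *Fas3* (-0.33), *hh* (-0.89) and *CadN* (-0.59), and with the block 2 were higher and 4 lower. The lower sum was thus not shared by all 9 genes. The summed early germline, muscle sheath and accessory gland genes overlapped between the genotypes. Of 6 early germline genes 1 was higher, the piRNA pathway gene *aub* (0.71, adjusted p = 0.00549 by edgeR), and with the block 4 were. None of 9 muscle genes was called, and with the block 1 was higher and 1 lower. The accessory gland genes varied most, since control replicate 2 held few of their RNAs. Their sum was 4240 there and ran up to 42704 in the other control samples, against 11044 to 27409 in the mutant. One of these 16 genes, *Acp33A*, was called, with 2.01, 0 and 4.21 normalized counts in control testes against 260, 96.1 and 307 in the mutant (log2 fold change 6.67, adjusted p = 0.000845 by edgeR), and with the block 1 was higher and 1 lower. *aub*, *Acp33A* and the called hub and cyst cell genes were named after their values were seen. No marker of any of these lists was at 0 throughout. Without control replicate 2, 0 comet-type genes were called, in a fit that called 3059 of 13880 tested genes. With all samples 4547 of 14059 were called. Having fewer samples, that fit cannot decide whether the accessory gland RNAs bear on the members. What part these differences have in the levels of the comet-type genes was not tested.

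None of the 6 measured members passed the test between mutant and control in the main fit, which has no block. Of all tested genes 32.3% passed it (edgeR quasi-likelihood test, Benjamini-Hochberg adjusted p under 0.05), 14.5% as higher and 17.8% as lower in the mutant. With the replicate number as a block, 1 of the 6, *sunz*, passed as lower in the mutant, beside 45.6% of all tested genes. At an unadjusted p under 0.05 in the main fit, 2 of the 6, *boly* and *sunz*, were lower in the mutant. Beside them stood 43.7% of all tested genes in either direction and 22.3% lower. DESeq2 called 2, *hale* and *boly*, beside 37.1% of all genes, and limma voom called 0, beside 31.9%. The calls therefore differed between tools, but the sizes were small in every one. The log2 fold changes ran from -0.26 to 0.13, with a median of -0.15, beside a median of 0.02 over all tested genes. Among the 1811 genes with a control mean within the range of the members, 11.7% were called, and the median size of the log2 fold change was 0.141 there and 0.147 in the members. The 95% intervals of the 6 members all lay between -0.50 and 0.38 on the log2 scale, so none of them allowed a halving or a doubling.

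*soti* had a higher mean in the mutant, within the spread of its replicates. The control replicates had 42529, 38468 and 43467 normalized counts, against 50821, 44747 and 41061 in mutant testes. The third mutant replicate lay within the control range and the other two above it, so the genotypes overlapped. The log2 fold change was 0.13 (SE 0.105, 95% interval -0.11 to 0.38, Benjamini-Hochberg adjusted p = 0.370 by the edgeR test). Single libraries moved this value: it was 0.05 without mutant replicate 1, 0.08 without control replicate 2 and 0.20 without mutant replicate 3.

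The low member *sunz* had the largest difference of the 6. In control it reached 9804, 9206 and 10175 normalized counts, and in mutant testes 9167, 7627 and 7544. Every mutant replicate lay below every control replicate, the first of them narrowly. The mutant mean was 0.834 times that of control (95% interval 0.706 to 0.985), a log2 fold change of -0.26 (SE 0.102, adjusted p = 0.0912 by the edgeR test). With the replicate number as a block the value was -0.27 (SE 0.084, adjusted p = 0.0344), which passed the threshold, and 45.6% of all tested genes passed it in that fit, 22.2% as higher and 23.4% as lower in the mutant. It passed also without the first mutant replicate, at -0.36 (adjusted p = 0.0115), where 42.4% of all tested genes passed. Within pairs of the same number, *sunz* differed by -0.10, -0.27 and -0.43 on the log2 scale.

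*boly* and *hale* also did not overlap between the genotypes. *boly*, the first gene of the 2R block, had 36892, 39319 and 36587 normalized counts in control testes, against 33648, 32622 and 33073 in the mutant. Its mutant replicates lay close together and below every control replicate. The log2 fold change was -0.18 (SE 0.073, 95% interval -0.36 to -0.010, adjusted p = 0.0983 by edgeR's quasi-likelihood test). *hale* had 14727, 15342 and 15518 normalized counts in control testes, against 13726, 13425 and 13711 in the mutant. Its mutant replicates were again all below the control replicates, with a log2 fold change of -0.16 (SE 0.069, 95% interval -0.32 to 0.0060, adjusted p = 0.127 by the same test). DESeq2 gave adjusted p-values of 0.0237 for *boly* and 0.0389 for *hale*. Thus 3 of the 6 members, *hale*, *boly* and *sunz*, had genotypes that did not overlap, all of them lower in the mutant. Over all tested genes the genotypes did not overlap for 47.3%, with 24.1% of all tested genes lower and 23.2% higher in the mutant, with 3 replicates of each.

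The divergent neighbour of *hale* overlapped between the genotypes. *schuy* had 49082, 51394 and 46315 normalized counts in control testes, against 50276, 41939 and 41331 in the mutant. The first mutant replicate lay within the control range and the other two below it. The log2 fold change was -0.14 (SE 0.103, 95% interval -0.38 to 0.11, adjusted p = 0.356 by edgeR's quasi-likelihood test). It was -0.23 without mutant replicate 1 and -0.09 without mutant replicate 3. *whip*, the last of the 2R block, had 18967, 17905 and 18857 normalized counts in control testes, against 20050, 18230 and 18223 in the mutant. These ranges overlapped, and the log2 fold change was 0.02 (SE 0.078, 95% interval -0.16 to 0.20, adjusted p = 0.865). *whip* fell on either side of 0 under other scalings, so it has no direction in these data.

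**Figure D3:**
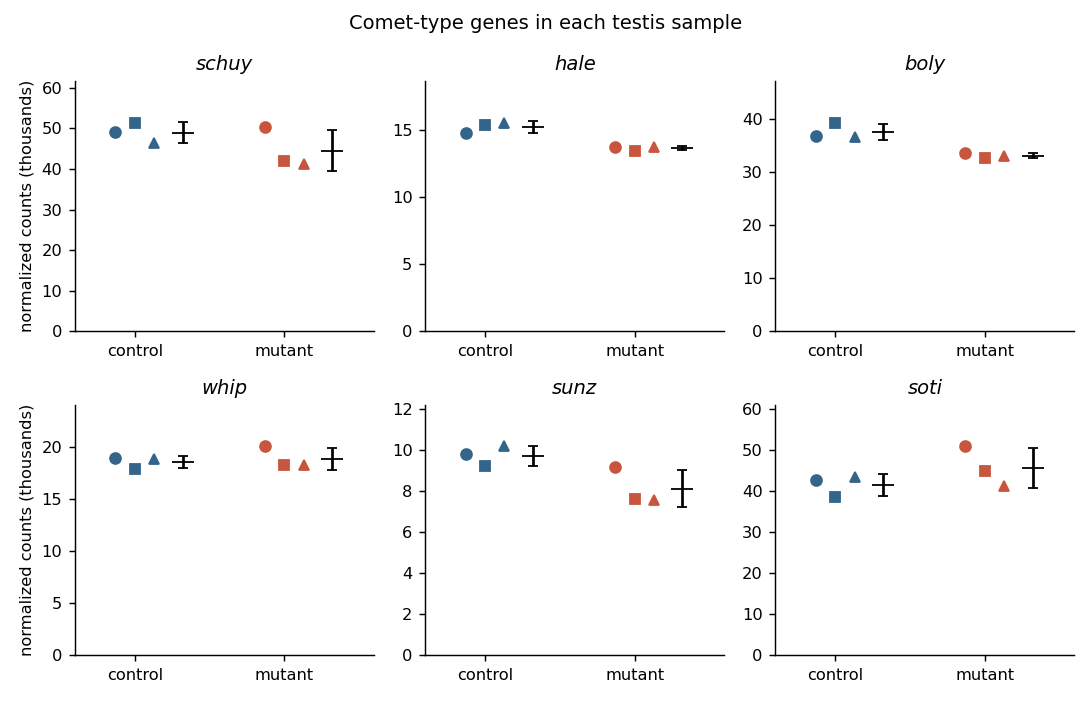
Normalized counts of the 6 measured comet-type genes in each replicate (circle, square and triangle for replicates 1, 2 and 3), with black bars for the mean ± SD of 3 replicates of each genotype. The control and mutant replicates overlap for *schuy*, *whip* and *soti* and do not overlap for *hale*, *boly* and *sunz*.

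The 6 members added up to nearly the same amount in every control sample and to a more variable amount in the mutant. Their sum was 172002, 171634 and 170917 normalized counts in control testes, against 177689, 158590 and 154942 in the mutant. The first mutant replicate was above every control replicate and the other two below, and it was the highest mutant replicate for each of the 6 genes. The mean log2 sum of the mutant minus that of control was -0.07. It was -0.13 without that replicate, -0.053 without mutant replicate 2 and -0.035 without mutant replicate 3. The coefficient of variation of single members ran from 2.73% to 6.40% in control and from 1.24% to 11.3% in the mutant. Counting error ran from 0.512% for *schuy* to 1.199% for *sunz*, less than the spread between replicates of the same gene.

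Ratios between members within a sample do not depend on how libraries are scaled. Of the 15 pairs, 7 had control and mutant ratios that did not overlap, beside 32.9% of all pairs of genes in the same range of abundance. With 3 replicates against 3 the smallest exact permutation p is 0.1, and adjusted over the 15 pairs it was 0.214 for each of the 7, so none passed a threshold of 0.05. The largest difference among the 15 pairs was that of *sunz* over *soti*, with log2 count ratios of -2.12, -2.06 and -2.09 in control and -2.47, -2.55 and -2.44 in the mutant, a difference of -0.40. Here the gap between the genotypes was wider than the spread within either. *boly* over *soti* differed by -0.31, *hale* over *soti* by -0.29, *whip* over *sunz* by 0.29 and *schuy* over *soti* by -0.27. Over *whip*, *boly* differed by -0.20 and *hale* by -0.18. All 7 pairs joined *soti* or *whip* with one of the other 4 genes. Of the summed counts of the 6 members, *soti* took 24.2 ± 1.58% in control and 27.8 ± 1.12% in the mutant, and *sunz* 5.67 ± 0.296% and 4.95 ± 0.187% (SD, n = 3).

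**Figure D4:**
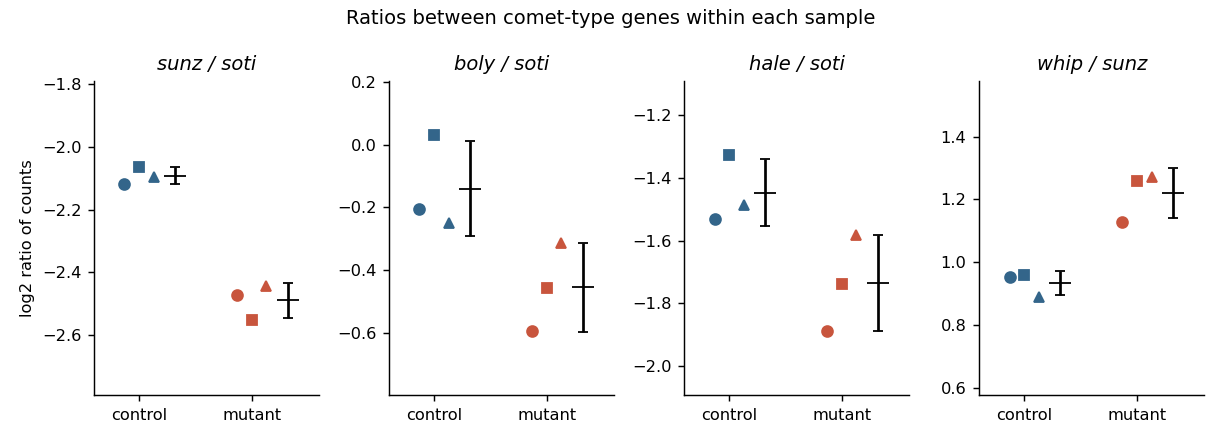
Log2 ratio of the counts of 2 comet-type genes in the same sample, for the 4 pairs with the largest difference between the genotypes, with a point for each replicate and a bar for the mean ± SD of 3 replicates. In each panel the control and mutant points do not overlap, and *sunz* over *soti* differs most, by -0.40.

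The post-meiotic cup genes, whose RNAs are also transcribed late and lie at the tail ends, were compared with the comet-type genes. Of 16 cup genes listed, 10 were matched by symbol, and all 10 were tested. None of them was higher and 1, *s-cup*, was lower in the mutant, a rate of 10% beside the 32.3% of all tested genes. The median control mean of the 10 was 19966 normalized counts. Of genes with a control mean within the range of the comet-type members, 11.7% were called. That range, from 9728 to 48930 normalized counts, does not hold all 10 cup genes, so the 2 rates are not matched for abundance. The called *s-cup* lay below it and was the least abundant of the 10. It was at 662 ± 40.8 normalized counts in control testes, against 414 ± 35.3 in the mutant (SD, n = 3). Its log2 fold change was -0.68 (adjusted p = 0.00276 by the edgeR test). The other 9 ran from -0.21 to 0.23, and the median of the 10 was -0.07. With the replicate block 1 cup gene was higher and 1 lower, beside 22.2% and 23.4% of all tested genes. The sum of the 10 ran from 424437 to 436259 in control and from 352477 to 445097 in the mutant, a wider range in the mutant, as for the comet-type genes.

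**Figure D5:**
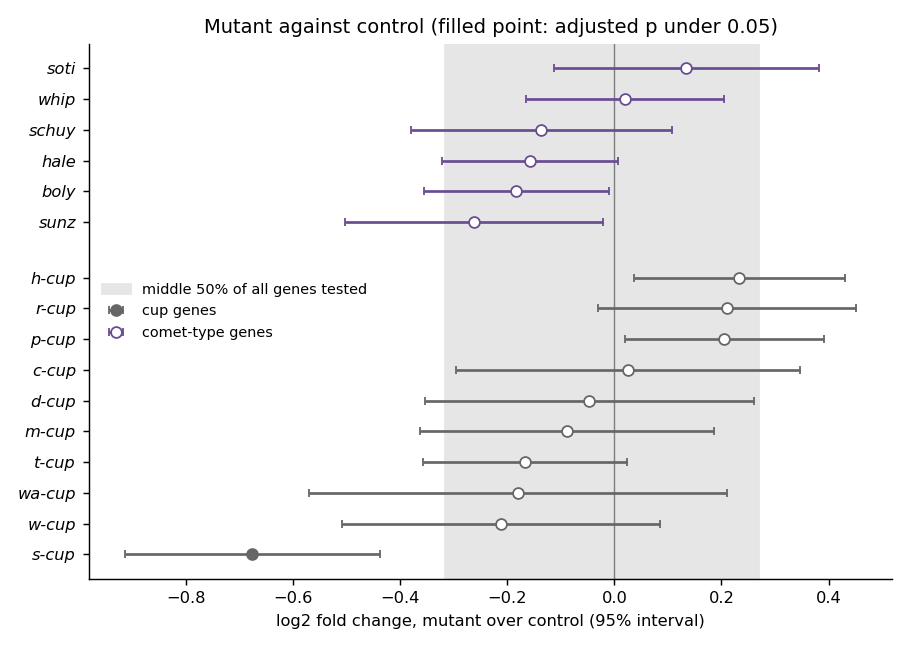
Log2 fold change of mutant over control for the 6 measured comet-type genes and 10 cup genes, with 95% intervals from edgeR and the middle 50% of all tested genes as a grey band. *s-cup*, at -0.68, is the single filled point, and the comet-type genes run from -0.26 (*sunz*) to 0.13 (*soti*).

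Because Soti acts on a Cullin-3 ligase, a list of 16 Cullin-3 and caspase genes was examined. Not all of the 16 are partners of Soti, and the list holds general caspase genes as well. *Cul3*, the scaffold of the ligase, had 118709 ± 6474 normalized counts in control testes, against 100483 ± 14129 in the mutant, with overlap (log2 fold change -0.24, adjusted p = 0.164 by edgeR's quasi-likelihood test). *Roc1b*, its RING partner, had 7022 ± 673 and 7342 ± 705, also with overlap (0.06, adjusted p = 0.687). *klhl10*, the substrate adaptor that Soti inhibits, is not analysed here. Of the 16 genes, 1 was lower and none higher, a rate of 6.25% beside the 32.3% of all tested genes. The median log2 fold change was -0.03. The gene that was lower was *hid*, which promotes caspase activation, at -1.27 (adjusted p = 0.000192 by the same test), named after its value was seen. With the replicate block 2 of the 16 were higher and 2 lower, beside 22.2% and 23.4% of all tested genes.

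A list of 18 genes transcribed earlier, in spermatocytes, most of them spermatid genes, was also examined. It had 2 genes higher and 2 lower in the mutant, with a median log2 fold change of 0.16. The share called was 22.2%, beside 32.3% of all tested genes. With the block 3 were higher and 2 lower, where 45.6% of all tested genes were called. The following are the calls without the block. The higher ones were the protamine *ProtA* (0.88) and the histone-like *Mst77F* (0.57). The protamine *ProtB* (-0.75) and the transition protein *Tpl94D* (-0.81) were the lower ones. These 4 were named after their values were seen. No test of the difference between this list and the comet-type genes was made.

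The nearest tested genes on each side that are not members and do not overlap one were 8 genes. Of these 3 passed the test, 1 as higher and 2 as lower, beside the 32.3% of all tested genes, and 5 did not pass, over a range of log2 fold changes from -2.12 to 0.72 with a median of -0.17. Both neighbours of *soti* were among those called. *lncRNA:CR44943*, 3318 bases from *soti* on the same strand, averaged 2110 normalized counts in control testes and 486 in mutant testes (-2.12, adjusted p = 4.69e-05 by edgeR's quasi-likelihood test). On the other side, *cv-c*, 9983 bases away, was higher in the mutant (0.72, adjusted p = 0.00188 by the same test). *CG31286*, 10047 bases from *sunz*, was lower (-0.33, adjusted p = 0.0386). *soti* itself, between 2 genes called in opposite directions, was not called. These 3 neighbours were named after their values were seen. *pdm3*, which spans the 2R block on the opposite strand, is not among the 8. It was lower in the mutant (-0.62, adjusted p = 0.0379 by the edgeR test). *schuy*, *hale*, *sunz* and *soti* are on chromosome 3 like *mod*, where the genotypes differ in the modL8 chromosome against a wild-type one, so *modulo* and that chromosome cannot be told apart. *boly* and *whip* are on chromosome 2. On arms 2R, 3L and 3R, 31.0%, 33.8% and 33.3% of tested genes were called.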

How the data were processed

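Read pairs from rRNA-depleted testis RNA were aligned by the authors with STAR 2.7.1a to BDGP6/dm6 and counted on FlyBase genes by strand with featureCounts, a pair with several alignments being divided among them. What the authors deposited are thus estimated counts for each gene and lane, without normalization. A combined table with identical values was not used. Lane counts were added up per replicate (3 lanes each) and rounded. Of 108 member values per lane, 107 were whole numbers.

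Genes that reached 10 counts in 3 or more of the 6 samples were tested with edgeR 4.0.16 (TMM, quasi-likelihood, Benjamini-Hochberg, adjusted p under 0.05) in R 4.3.3, without a block. DESeq2 1.42.0, limma 3.58.1 (voom), other scalings and filters, single lanes, the replicate block and each replicate left out were alternatives. Standard errors are the fold change divided by the square root of F. The edgeR p-values set the genotype difference against the spread between these samples, which edgeR moderates over all genes. The 95% intervals of fold changes come from these standard errors.

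Deviations of same-numbered samples of the genotypes had correlations across genes of 0.556 and 0.581 for numbers 1 and 2. For number 3 the correlation was weak, at 0.167. Samples of different numbers ran from -0.583 to 0.107. The deviations were taken from the mean of each genotype, so these correlations are not independent of each other. A fit with the number as a block is given beside the main fit, which has none. What a number shares is not stated in the labels.

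Named were all members, *mod*, called cup genes at the extremes, *Cul3*, *Roc1b*, genes overlapping member exons, and nearest neighbours by counts and range. Members and lists were chosen with earlier results of these data known. Positions are from the BDGP6.54 annotation. No sequences were used here.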

Additional observations from a re-analysis of the deposited data

How the results depend on the processing

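Of 120 values for single members under 20 alternative settings, 109 stayed in the same direction and on the same side of the threshold. *whip* changed sign with upper-quartile scaling (-0.0034), with total counts (-0.036), with lane 2 only (-0.0027) and in its range without 1 replicate (-0.025 to 0.042). *schuy* changed sign only when libraries were scaled to the summed cup genes (0.0027), a setting chosen after seeing the data that moved the median of all genes to 0.17. *boly* passed the threshold with total counts (-0.24) and DESeq2 (-0.18), *hale* with DESeq2 (-0.16), and *sunz* with the replicate block (-0.27). Without 1 replicate *sunz* ran from -0.36 to -0.21, *soti* from 0.05 to 0.20 and *schuy* from -0.23 to -0.09. The members called were 1 with total counts, 2 with DESeq2, 1 with the replicate block, and 0 to 1 without 1 replicate. Cup genes called were 3 with DESeq2, 2 with the block and 1 to 3 without 1 replicate. Cullin-3 and caspase genes called were 3 with upper-quartile scaling, 3 with DESeq2, 2 with lane 2 only, 4 with the block and 1 to 4 without 1 replicate. Without mutant replicate 1, 8 of the 18 genes transcribed earlier, in spermatocytes, were called, in place of 4 in each of the other fits without 1 replicate. In fits without 1 replicate, all genes called ran from 2611 (without mutant replicate 2) to 5895 (without mutant replicate 1), with 2754 without control replicate 3, beside 4547 with all samples and 6409 with the block. The block changed no other member's call. The cause of these changes was not tested. Counting depth does not limit the members, whose counting error was at most 1.199%, and 3 replicates limit the precision.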
